A study of Rattus norvegicus with 3 samples.

Results

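The genes described here encode the proteins that carry iron into a cell, store it there and let it out again: Tfrc, Slc11a2, Steap3, Fth1, Ftl1, Ncoa4, Pcbp1, Slc40a1, Hmox1 and Ireb2. They were taken by symbol from a fixed list of 10, of which 9 were found among the 16516 genes of the authors' deposited table. Pcbp1, a chaperone that delivers iron to ferritin, is not analysed here. The animals were Wistar Hannover rats, and RNA was taken from 3 populations of the enamel organ, the epithelium that makes tooth enamel: cervical loop cells, where the ameloblast lineage begins, ameloblasts of the secretory stage, which lay down enamel matrix, and ameloblasts of the maturation stage, which remove that matrix while mineral fills the space. Per the labels, 5 rats were dissected with no genotype, treatment or age stated, 1 cervical loop library was left out for low RNA integrity, and each library was read to 25000000 reads, 75 bases long and from 1 end. Each stage is given as 1 least-squares mean per gene, in a unit that is not stated, so no spread stands beside a mean. How many libraries stand behind each mean is not stated either, and replicate error enters only through the authors' p-values, which measure the spread as their model saw it.

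Transferrin-bound iron enters cells on the transferrin receptor, is reduced in the endosome by a Steap reductase and crosses into the cytosol through the transporter Slc11a2. Ferritin, a shell of heavy (Fth1) and light (Ftl1) chains, holds what is not used, Ncoa4 hands ferritin to the lysosome for breakdown, and ferroportin (Slc40a1) is the known exporter of iron from animal cells. The iron regulatory proteins, encoded by Aco1 and Ireb2, bind stem-loops in messenger RNAs: they are known to stabilise Tfrc mRNA and to block translation of ferritin mRNA when iron is short. Rat incisors are a classic case of iron in enamel: maturation ameloblasts fill with ferritin, and the iron they release colours the labial enamel orange-yellow.

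The stage labels were checked against defining genes. Ambn, Amelx, Enam and Mmp20, 4 genes of enamel matrix and its processing, had a summed mean of 2920 in cervical loop, 112877 in secretory and 5621 in maturation cells. The 5 maturation genes Klk4, Amtn, Odam, Wdr72 and Slc24a4 summed to 83.8, 554 and 5570 in the same order, and Sox2, Lgr5, Sfrp5 and Mki67, of the cervical loop, to 308, 39.7 and 36.5. Mki67 alone held 289 of that 308. Each of these 4 was highest in cervical loop cells, though Lgr5 was low throughout, at 0.427, 0.105 and 0.102. Sfrp5 was higher in maturation than in secretory cells, at 0.968 and 0.312. A gene is called changed here at a false discovery rate (FDR) of at most 0.05 in the authors' deposited table. In bulk RNA of this kind, fewer cells of a type and less RNA per cell cannot be told apart.

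Most of the iron genes were highest in maturation ameloblasts, while Ireb2 and Slc40a1 passed in no comparison. Of the 9, 7 rose from secretory to maturation and 0 fell, where 21.8% of all genes rose, 21.1% fell and 42.9% changed in either direction in the authors' deposited table. From cervical loop to maturation, 7 rose and 0 fell, where 24.1% of all genes rose, 33.7% fell and 57.8% changed in that table. From cervical loop to secretory cells 1 rose and 0 fell, where 16.5% of all genes rose, 25.2% fell and 41.8% changed in that table. The 7 genes Tfrc, Slc11a2, Steap3, Fth1, Ftl1, Ncoa4 and Hmox1 were higher in maturation than in both other stages, as were 14.6% of all genes by the authors' deposited table. These comparisons share their maturation libraries, so the counts are not independent of each other. The median ratio of the 9 was 3.56 for maturation over secretory, against 1.00 over all genes, and 1.30 for secretory over cervical loop, against 0.907. Added up, the 9 means took 0.130% of all summed means in cervical loop, 0.133% in secretory and 1.53% in maturation cells. Sums over all genes were 436717, 612568 and 484343 in that order. Tfrc and Fth1 alone held 3249 and 2955 of the maturation sum of 7419, so these shares mostly follow those genes.

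**Figure D1:**
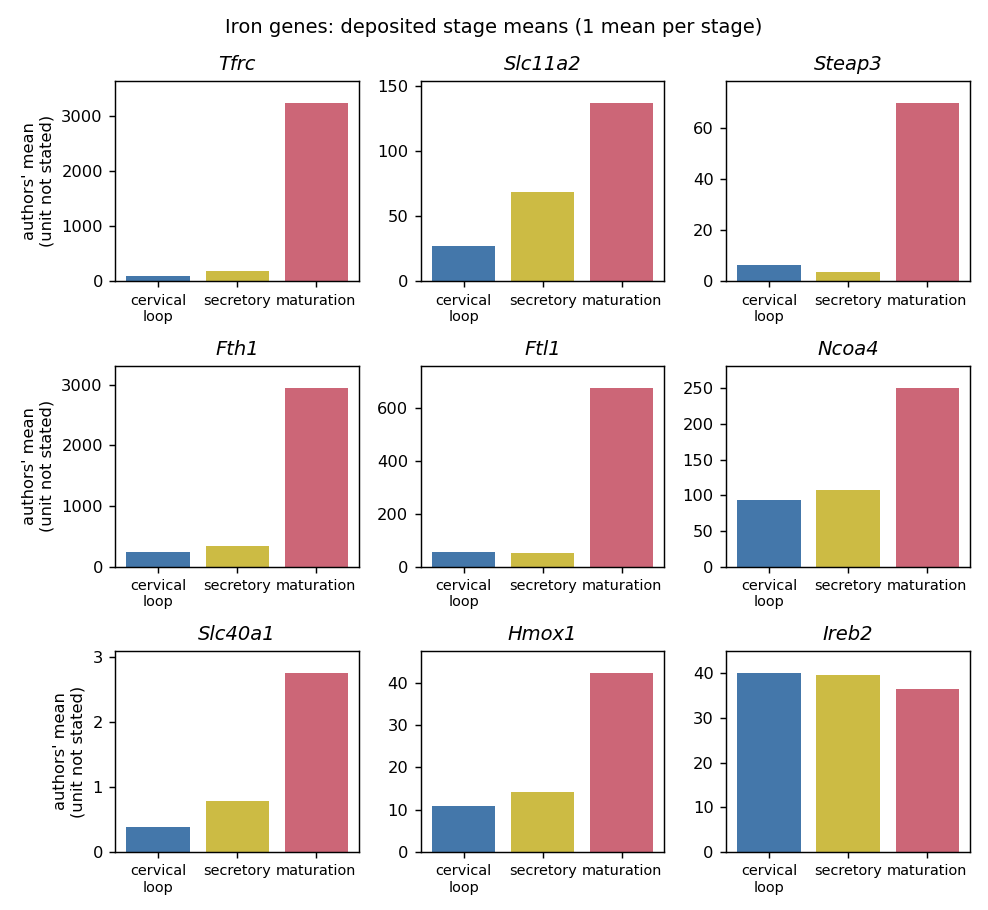
Authors' mean (vertical axis, unit not stated, from 0, scaled separately for each gene) of 9 iron genes in cervical loop, secretory and maturation cells; each bar is 1 deposited mean, with no error available. Maturation holds the tallest bar for 8 genes, while Ireb2 stands between 36.6 and 40.1 in the 3 stages.

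Among the uptake genes, Tfrc, the transferrin receptor, had means of 94.2 in cervical loop, 188 in secretory and 3249 in maturation cells. Maturation stood far above the other stages, 17.3-fold over secretory (FDR = 0.000321) and 34.5-fold over cervical loop (FDR = 0.000113) by the authors' deposited table. Its maturation-to-secretory ratio was above those of 99.7% of genes. The 1.99-fold difference between secretory and cervical loop cells did not pass (FDR = 0.0845 in the authors' deposited table).

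Slc11a2, the iron transporter of endosomes and of the apical membrane in gut (also known as Dmt1), rose in steps. Its means were 27.2, 68.7 and 137 in cervical loop, secretory and maturation cells. It is the 1 iron gene that changed at each step: 2.53-fold above cervical loop cells in the secretory stage (FDR = 0.0018) and 1.998-fold above secretory cells in maturation (FDR = 0.00341) by the authors' deposited table. Steap3, the reductase that turns ferric into ferrous iron in the endosome of red cell precursors, had means of 6.31, 3.54 and 70.0. The order of its 2 lower stages was not resolved (FDR = 0.136), while maturation was 19.8-fold above secretory (FDR = 0.000426) and 11.1-fold above cervical loop cells (FDR = 0.000446) by the authors' deposited table. Among the 9 genes this was the highest maturation-to-secretory ratio, and Tfrc had the highest against cervical loop cells.

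Because Tfrc, Slc11a2, Steap3 and Ncoa4 rose together, the 250 bases before their RefSeq start sites were read on build GRCr8, another build than the rn6 named for these data. RefSeq windows were found for 6 of the 9 genes, 7 windows in all, since Slc11a2 has 2 starts. Searched on both strands were ACGTG and GCGTG, the cores of hypoxia response elements, and TGACNNNGC, the core of the antioxidant response element. Matches of these motifs may overlap one another. Of all 33469 windows of that length, 16.6% hold ACGTG, 25.9% GCGTG and 10.1% TGACNNNGC. The Tfrc and Ncoa4 windows are shown because they alone among the 7 hold ACGTG; capitals mark each match of the 3 motifs, on either strand.
Tfrc, chr11:81690319-81690568, minus strand: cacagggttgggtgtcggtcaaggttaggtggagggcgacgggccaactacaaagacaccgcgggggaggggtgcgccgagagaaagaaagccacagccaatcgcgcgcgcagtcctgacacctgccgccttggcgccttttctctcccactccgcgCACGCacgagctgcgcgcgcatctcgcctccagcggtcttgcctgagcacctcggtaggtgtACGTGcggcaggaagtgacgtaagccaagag
Ncoa4, chr16:7401541-7401790, plus strand: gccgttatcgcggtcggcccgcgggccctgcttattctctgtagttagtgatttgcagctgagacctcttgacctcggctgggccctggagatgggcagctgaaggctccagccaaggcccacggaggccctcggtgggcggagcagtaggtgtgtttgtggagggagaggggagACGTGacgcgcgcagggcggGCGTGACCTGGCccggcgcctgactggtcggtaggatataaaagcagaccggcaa
In Tfrc, ACGTG spans bases 31 to 27 before the start, and GCGTG on the opposite strand (written CACGC here) spans bases 93 to 89. In Ncoa4, ACGTG spans bases 75 to 71, GCGTG bases 55 to 51 and TGACNNNGC bases 52 to 44, so the last pair overlap. The upstream of the 2 Slc11a2 starts holds none of them and the downstream 1 GCGTG, and the Steap3, Slc40a1 and Ireb2 windows hold none. These matches are letters in a window and were not tested for any factor.

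**Figure D2:**
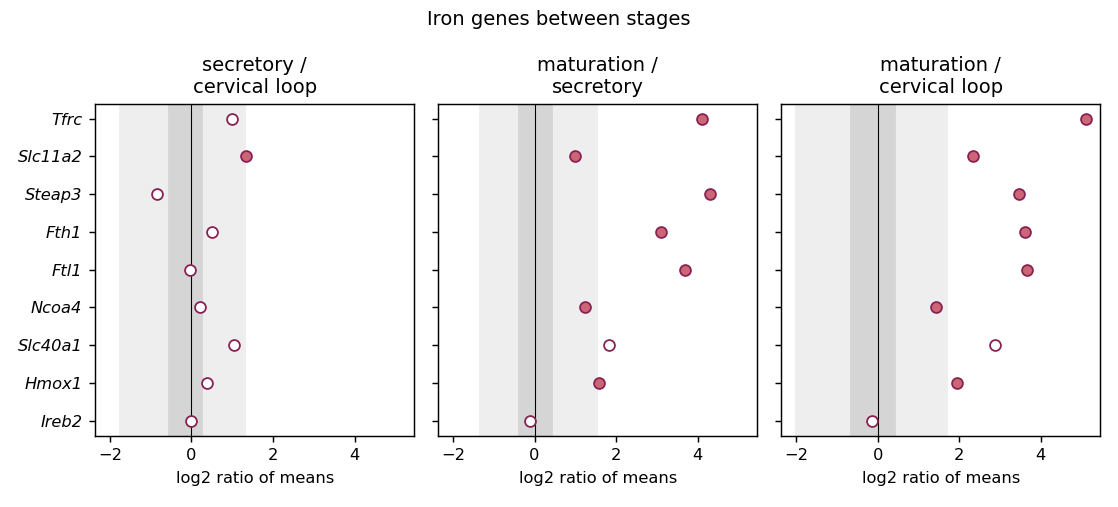
Log2 ratio of the authors' means (horizontal axis) of 9 iron genes for secretory over cervical loop, maturation over secretory and maturation over cervical loop; filled points passed FDR 0.05, open points did not, and grey bands hold the middle 50 and 90 percent of all genes. In the middle panel Tfrc, Steap3, Fth1 and Ftl1 lie at 3.11 or more, beyond the upper edge of the wider band at 1.52.

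Both ferritin chains rose with the receptor. Fth1, the heavy chain with the ferroxidase site, had means of 243 in cervical loop, 342 in secretory and 2955 in maturation cells. Maturation exceeded secretory cells 8.64-fold (FDR = 0.000528) and cervical loop cells 12.2-fold (FDR = 0.000213) by the authors' deposited table. Ftl1, the light chain that promotes core formation, had means of 53.6, 51.9 and 675. Its 13.0-fold rise from secretory to maturation cells (FDR = 0.000141) and 12.6-fold rise over cervical loop cells (FDR = 6.35e-05, the authors' deposited table) rest on a cervical loop and a secretory mean that did not differ beyond error (FDR = 0.459). For Fth1 the cervical loop and secretory means did not differ beyond error either (FDR = 0.36 in the authors' deposited table). Ferritin genes have many near-identical copies in rat. RefSeq names 21 further entries after Ftl1, 15 of them pseudogenes, and 6 after Fth1, 5 of them pseudogenes. None of these symbols is in the gene table, and how reads shared with them were counted is not stated. The ferritin levels are uncertain in that respect.

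Ncoa4, the receptor that takes ferritin to the lysosome, rose less. Its means were 93.2, 107 and 251, and maturation was 2.34-fold above secretory (FDR = 0.000772) and 2.69-fold above cervical loop cells (FDR = 0.000206) in the authors' deposited table. Secretory and cervical loop cells were 1.15-fold apart, which did not pass (FDR = 0.073 in the authors' deposited table). The difference in size between its rise and those of the ferritin chains was not tested.

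Export was not called. Slc40a1, ferroportin, had means of 0.376, 0.774 and 2.75 in cervical loop, secretory and maturation cells. Its maturation mean was 7.31-fold the cervical loop mean (FDR = 0.164) and 3.56-fold the secretory mean (FDR = 0.292) in the authors' deposited table, so no difference passed despite the ratios. With 1 added to each mean, the log2 ratio over cervical loop was 1.45 in place of 2.87. Hmox1, heme oxygenase, which frees iron from heme, had means of 10.9, 14.2 and 42.5. Maturation exceeded secretory cells 2.99-fold (FDR = 0.0234) and cervical loop cells 3.88-fold (FDR = 0.0142), the highest FDRs among the 7 genes called in the authors' deposited table. Secretory and cervical loop cells did not differ beyond error (FDR = 0.884 in the authors' deposited table).

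Ireb2, which encodes iron regulatory protein 2, had the flattest profile of the 9. Its means were 40.1, 39.5 and 36.6, within 1.10-fold of each other, and none of its 3 comparisons passed (FDR = 0.913, 0.279 and 0.2 for secretory over cervical loop, maturation over secretory and maturation over cervical loop in the authors' deposited table). Aco1, which encodes iron regulatory protein 1, had means of 52.6, 51.4 and 51.2 and did not pass either (FDR from 0.531 to 0.994 in the authors' deposited table). Iron regulatory protein 2 is known to be set by protein breakdown through Fbxl5, which RNA levels do not show. Fbxl5 itself rose 1.35-fold from cervical loop to secretory cells (FDR = 0.0178) and fell to 0.703 of that level in maturation (FDR = 0.00749, the authors' deposited table).

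Transcript tables, 1 per pair of stages, cover 3 of the 9 genes: Slc11a2, Ncoa4 and Ireb2. Slc11a2 is known to be made from alternative first exons and with alternative ends, of which 1 carries an iron responsive element; which of the 4 listed transcripts has it is not given in the sources used here. Its transcript make-up changed between secretory and maturation cells (FDR = 0.0424 in the authors' deposited table), where 1.8% of 4051 genes changed. Slc11a2-201 went from a mean of 44.3 in secretory to 121 in maturation cells, a rise of 2.73-fold (FDR = 0.00667 by the authors' deposited table). Slc11a2-202 stood at 14.8 and 7.43 in the same table and did not pass (FDR = 0.0604 in the authors' deposited table), nor did Slc11a2-203 at 8.36 and 8.00 (FDR = 0.995). By these means, Slc11a2-201 made up 64.5% of the gene's transcript sum in secretory and 87.4% in maturation cells, and Slc11a2-202 made up 21.5% and 5.37%. Slc11a2-204, at 1.26 and 2.02, did not pass (FDR = 0.266 in the authors' deposited table), so Slc11a2-201 was the 1 transcript of 4 called at this step.

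**Figure D3:**
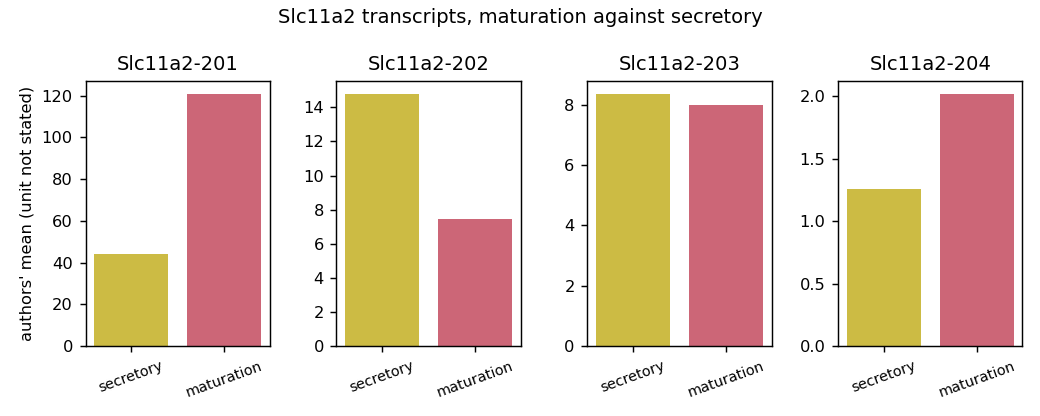
Authors' mean (vertical axis, unit not stated, from 0, scaled separately in each panel) of the 4 Slc11a2 transcripts in secretory and maturation cells, with no error available. Slc11a2-201 is the tall bar at 121 in maturation, while Slc11a2-202 stands at 14.8 in secretory and 7.43 in maturation cells.

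From cervical loop to secretory cells the make-up of Slc11a2 did not pass (FDR = 0.642, where 1.19% of genes changed in the authors' deposited table). In that comparison Slc11a2-202 rose 3.39-fold, from 4.28 to 14.5 (FDR = 0.000586), and Slc11a2-203 rose 2.1-fold, from 3.84 to 8.09 (FDR = 0.0144), in the authors' deposited table. Slc11a2-204 went the other way and fell from 1.74 to 0.989 (FDR = 0.0283 in the authors' deposited table). Slc11a2-201, at 22.2 and 44.1, did not pass there (FDR = 0.101 in the authors' deposited table). Between cervical loop and maturation cells the make-up did not pass either (FDR = 0.677, where 2.79% of genes changed in the authors' deposited table), and all 4 transcripts rose, by 2.46-fold to 5.79-fold (FDR from 3.98e-05 to 0.00614 in that table). Each table was estimated separately: Slc11a2-204 has a cervical loop mean of 0.481 in the maturation table and 1.74 in the secretory table, so transcript means were compared only within a table. Both transcripts of Ncoa4 rose from secretory to maturation cells, Ncoa4-201 from 58.8 to 150 and Ncoa4-202 from 46.5 to 104 (FDR = 2.09e-05 and 9.15e-05), with no change in make-up called (FDR = 0.634 in the authors' deposited table). From cervical loop to secretory cells, where the gene did not pass, both Ncoa4 transcripts did, at 1.26-fold and 1.21-fold (FDR = 0.0365 and 0.0316 in the authors' deposited table). Their cervical loop means were 48.1 and 39.7 in that table but 56.5 and 48.1 in the maturation table, so rises this small are uncertain. Neither transcript of Ireb2 passed between any pair of stages in the authors' deposited tables.

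For the other genes of iron uptake the shares called were near those of all genes from secretory to maturation cells only. From cervical loop to secretory cells 8 of 17 rose and 2 fell, where 16.5% of all genes rose and 25.2% fell. From cervical loop to maturation 8 rose and 4 fell, where 24.1% of all genes rose and 33.7% fell. From secretory to maturation cells 3 of the 17 measured rose and 5 fell, 9 did not pass, where 21.8% of all genes rose and 21.1% fell, and the median ratio was 0.956 against 1.00 over all genes. Slc39a14, a metal transporter that takes up iron not bound to transferrin, had its highest mean in secretory cells: 53.4, 334 and 172 in cervical loop, secretory and maturation cells. It rose 6.25-fold into the secretory stage (FDR = 0.00047) and fell to 0.516 of that level in maturation (FDR = 0.0065) by the authors' deposited table. Steap1, of the same family as Steap3, went the same way at 5.81, 63.0 and 26.3 (FDR = 0.000452 and 0.00702 for the 2 steps in the authors' deposited table). Steap2 stood at 17.6, 58.1 and 69.9 and rose at the first step only by the threshold (FDR = 0.000837 and 0.195 in the authors' deposited table); the difference between steps was not tested.

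Slc39a8, another metal transporter, rose 2.38-fold from secretory to maturation cells, from 76.7 to 183 (FDR = 0.0084 in the authors' deposited table). Mcoln1, a lysosomal channel that passes iron, rose 1.89-fold, from 12.1 to 22.8 (FDR = 0.000627 in the authors' deposited table). Slc11a1, the relative of Slc11a2 found in macrophage phagosomes, was at 1.24 and 2.15 (1.73-fold, FDR = 0.0499 in the authors' deposited table). The falling genes were Slc22a17, a lipocalin receptor, at 57.6 and 17.1, and Scara5, a receptor for ferritin, at 32.4 and 14.2 (FDR = 0.00148 and 0.00377 in the authors' deposited table), beside Steap1, Slc39a14 and Exoc6, the last named here after its values were seen. Steap4 (10.1 and 21.5) and Lcn2 (1.5 and 1.69), a lipocalin that binds iron carriers, did not pass at this step (FDR = 0.0649 and 0.857 in the authors' deposited table).

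Transferrin itself (Tf) had means of 23.3, 28.8 and 32.7 and did not pass from secretory to maturation cells (FDR = 0.176), though it rose 1.24-fold from cervical loop to secretory cells (FDR = 0.0471, the authors' deposited table). Its transcript make-up changed from secretory to maturation (FDR = 0.00694 in the authors' deposited table). Tf was the 1 such gene of 28 in the wider lists with transcript tables, where 1.8% of all 4051 genes changed. The second receptor gene Tfr2 had means of 0.387, 0.167 and 0.112, and Hfe, whose protein binds transferrin receptors, was at 6.21, 2.62 and 1.95. Both fell from cervical loop to maturation (FDR = 0.00161 and 0.000853 in the authors' deposited table). Cybrd1, the ferric reductase of gut, was level at 47.2, 47.0 and 45.0 and passed in no comparison (FDR from 0.373 to 0.991 in the authors' deposited table).

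Beside ferritin, the storage list holds chaperones that carry iron. Pcbp2, a relative of Pcbp1 that also carries iron, was at 43.7, 42.1 and 34.8, and fell to 0.825 of its secretory level in maturation (FDR = 0.00686 in the authors' deposited table). Of 3 Pcbp genes measured, 0 rose and 3 fell from cervical loop to maturation, where 24.1% of all genes rose and 33.7% fell. Heph, a ferroxidase that works with ferroportin, was at 60.5, 24.7 and 31.5, with maturation at 0.52 of the cervical loop level (FDR = 0.000392) but 1.28-fold over secretory (FDR = 0.0212, the authors' deposited table). The other ferroxidase, Cp, at 50.6, 39.9 and 57.0, did not pass (FDR from 0.144 to 0.456 in the authors' deposited table). Prom2, linked to export of ferritin in vesicles, was highest in cervical loop cells at 119, against 10.7 and 13.1 (FDR = 0.00141 and 0.000874 against cervical loop in the authors' deposited table). Flvcr1, a heme exporter, fell from 2.93 to 1.39 between secretory and maturation cells (FDR = 0.00156 in the authors' deposited table). Of the 4 export genes beside Slc40a1, 0 rose and 3 fell from cervical loop to maturation, where 24.1% of all genes rose and 33.7% fell. From secretory to maturation 1 of the 4 rose, 1 fell and 2 did not pass, near the 21.8% and 21.1% of all genes. Their median ratio was 1.25 against 1.00 over all genes.

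Among sensing genes, Epas1 and Hif1a, hypoxia-inducible factors, rose at both steps: Epas1 had means of 48.9, 87.6 and 225, and Hif1a of 97.0, 134 and 283. From secretory to maturation the rises were 2.57-fold and 2.11-fold (FDR = 0.000638 and 0.000242 in the authors' deposited table). Epas1 mRNA is known to carry an iron responsive element. Bmp2 and Bmp6, which feed the hepcidin pathway in liver, were highest in secretory cells: Bmp2 at 16.7, 53.6 and 5.45, and Bmp6 at 3.27, 5.94 and 2.97. Both fell from secretory to maturation (FDR = 0.000638 and 0.00203 in the authors' deposited table). Of 10 genes measured in this list, 3 rose, 3 fell and 4 did not pass at that step, near the 21.8% and 21.1% of all genes.

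Of 14 genes of heme synthesis, 5 rose and 2 fell from secretory to maturation cells, where 21.8% of all genes rose and 21.1% fell. The other 7 did not pass, and the median ratio was 1.09 against 1.00 over all genes. Cpox, coproporphyrinogen oxidase, had means of 15.2, 33.1 and 74.5 and rose at both steps (FDR = 0.000561 and 0.000315 in the authors' deposited table). Abcb10, a mitochondrial transporter tied to heme synthesis, was at 7.00, 6.31 and 23.6, with maturation 3.74-fold above secretory (FDR = 9.15e-05 in the authors' deposited table). Alas1, the first and rate-limiting enzyme, stood at 11.1, 13.0 and 13.0, and Fech, the last, which inserts iron, at 18.9, 17.5 and 17.5. Neither passed (FDR = 0.909 and 0.963 for maturation over secretory in the authors' deposited table). Uros fell from 7.12 to 2.54 (FDR = 0.00532 in the authors' deposited table).

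Genes of heme breakdown and transport rose in 3 of 10 cases and fell in 1 from secretory to maturation cells, where 21.8% of all genes rose and 21.1% fell. Blvrb, a biliverdin reductase, rose 2.51-fold, from 5.62 to 14.1 (FDR = 0.00151), and Blvra, the other, fell from 12.6 to 9.70 (FDR = 0.023), by the authors' deposited table. Hmox2, the constitutive heme oxygenase, was at 17.3, 26.4 and 24.6. By the threshold it did not share the rise of Hmox1 from secretory to maturation (FDR = 0.254 in the authors' deposited table). Over cervical loop cells Hmox2 was 1.53-fold higher in secretory and 1.43-fold in maturation cells (FDR = 0.00168 and 0.00138 in that table). The difference between Hmox2 and Hmox1 was not tested. Bach1, a heme-sensing repressor of Hmox1, rose 1.33-fold from secretory to maturation, from 24.0 to 32.1 (FDR = 0.00382 in the authors' deposited table).

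Mitochondrial iron and iron-sulfur cluster genes rose more often than they fell. From secretory to maturation cells 15 of 31 rose and 1 fell, 15 did not pass, where 21.8% of all genes rose and 21.1% fell, and the median ratio was 1.20 against 1.00 over all genes. Ciapin1, of the cytosolic cluster pathway, stood at 26.8, 42.1 and 192 (4.55-fold over secretory, FDR = 0.000141 in the authors' deposited table). Nfs1, the desulfurase that supplies sulfur and a gene named after its values were seen, rose from 13.4 to 26.0 and Hspa9, a chaperone of the pathway, from 73.8 to 105 (FDR = 0.000985 and 0.000223 in the authors' deposited table). The iron importers of mitochondria Slc25a37 (4.03 and 3.70) and Slc25a28 (7.89 and 8.29) did not pass (FDR = 0.707 and 0.679 in the authors' deposited table). Mms19 was the 1 that fell, from 15.5 to 11.6 (FDR = 0.00394 in the authors' deposited table).

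**Figure D4:**
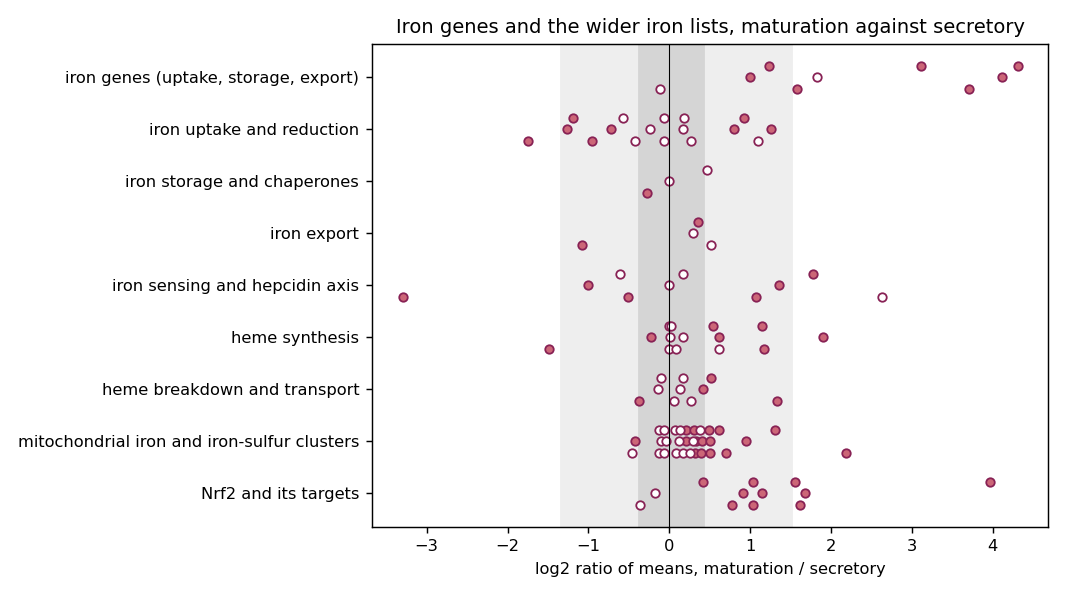
Log2 ratio of the authors' means, maturation over secretory (horizontal axis), for the 9 iron genes and 8 wider lists; each point is a gene, filled where it passed FDR 0.05, and grey bands hold the middle 50 and 90 percent of all genes. The wider uptake list, which leaves out Tfrc, Slc11a2 and Steap3, spreads to both sides with a median ratio of 0.956. Of the 9 iron genes, 7 are filled and to the right of 0.

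The profiles most like those of the iron genes within the wider lists were found from 2 differences of log2(mean + 1), over 3 stages, which is too few points to rank likeness finely. Nqo1 was nearest to Tfrc, Ftl1 and Steap3, at distances of 1.76, 0.681 and 0.809, and Ciapin1 to Fth1, at 0.958. Cpox was nearest to Slc11a2 (0.283), Tspo to Ncoa4 (0.173), Mafk to Slc40a1 (0.0522) and Cybrd1 to Ireb2 (0.0513). The small distance for Slc40a1 rests on the added 1. Without it, the ratios of the 2 steps were 2.06 and 3.56 for Slc40a1 but 1.36 and 2.21 for Mafk. The distance for Tfrc was the largest of the 9, within these 101 genes.

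Cells other than ameloblasts were present, and some carry iron genes of their own. Of all genes, 21.8% rose and 21.1% fell from secretory to maturation, and 24.1% rose and 33.7% fell from cervical loop to maturation. Erythroid cells are rich in Tfrc and Steap3: of 9 erythroid markers measured, 0 rose and 0 fell from secretory to maturation, 2 rose and 1 fell from cervical loop to maturation, and their summed mean was 1300 in cervical loop, 1155 in secretory and 1835 in maturation cells, with none at the floor of 0.1. That sum was 1.59-fold above secretory in maturation, and that of the 9 iron genes 9.10-fold. Few genes carry either sum. In maturation the hemoglobin genes Hba-a2 and Hbb held 1286 and 501 of the erythroid 1835. Tfrc and Fth1 held 3249 and 2955 of the 7419 of the iron genes. Hbb, a hemoglobin chain, stood at 365, 380 and 501 and did not pass (FDR from 0.307 to 0.968 in the authors' deposited table). Macrophages are rich in ferritin, Hmox1, Slc40a1 and Slc11a1: of 15 myeloid markers, 11 rose and 0 fell from secretory to maturation, and the sum went from 310 in cervical loop and 263 in secretory to 796 in maturation cells, with none at the floor. Lyz2 rose from 65.3 to 300 (FDR = 0.000467) and Cd68 from 6.02 to 23.4 (FDR = 0.0081), while Cd163, the macrophage receptor for hemoglobin, was at 3.37 and 2.84 (FDR = 0.484), in the authors' deposited table.

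The myeloid sum in maturation was 3.02-fold that in secretory cells, beside 2.99-fold for Hmox1, 3.56-fold for Slc40a1 (not passed) and 8.64-fold and 13.0-fold for Fth1 and Ftl1. From secretory to maturation, where 21.8% of all genes rose and 21.1% fell, 6 of 9 endothelial markers rose. Their sum went from 299 to 439. Of 8 mesenchyme markers, 3 rose (Lum, Pdgfra and Pdgfrb), and the sum went from 10816 to 14694. Most of that sum came from genes not called: Col1a1, Col1a2 and Col3a1 held 6385, 2534 and 3826 of it in maturation. None of these collagen genes passed at this step (FDR = 0.223, 0.105 and 0.117 in the authors' deposited table). Muscle markers summed to 5.41, 8.68 and 142 in the 3 stages, with Mb at the floor in cervical loop cells; 1 of 8 rose (Tnni1) and 1 fell (Actn3) from secretory to maturation. For the stratum intermedium, a neighbouring cell layer, 3 of 5 markers rose (Alpl, Krt14 and Lmo4) and 1 fell (Notch1), with sums of 972 and 2300. Krt14 alone went from 542 to 1691. Notch1 fell from 69.5 to 54.2 (FDR = 0.0268), and Hes1 did not pass (FDR = 0.273 in the authors' deposited table). The part of these cells in the iron gene levels was not tested.

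**Figure D5:**
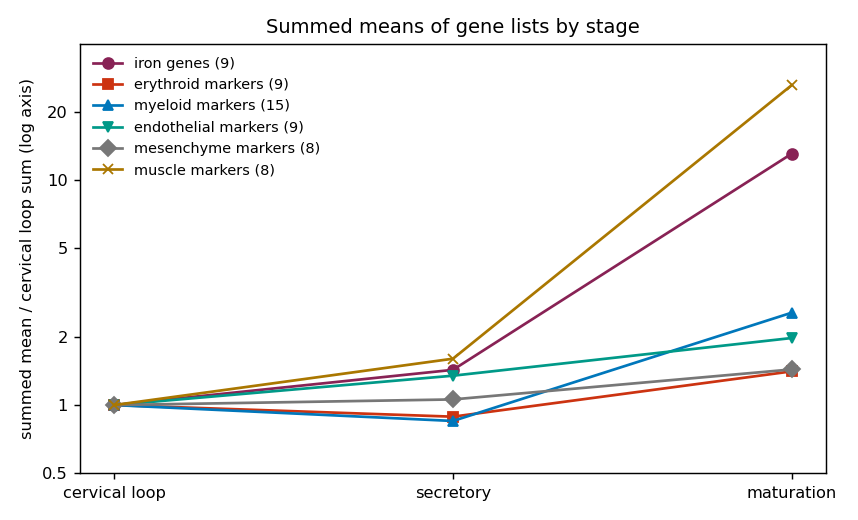
Summed authors' means of gene lists in cervical loop, secretory and maturation cells, each divided by its cervical loop sum (vertical axis, log scale); lines join the stages of a list, and no error is available. In maturation the 9 iron genes reach 13.0, the 8 muscle markers 26.3 from a low start, myeloid markers 2.57 and erythroid markers 1.41.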

How the data were processed

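RNA of 3 enamel organ populations was sequenced. Per the submitters' processing notes, STAR 2.5.3a, Partek and the build rn6 were used; for annotation, gene filter, normalisation and model, the terms used were not stated. Per the file headers, the authors deposited least-squares means per stage and, for each pair of stages, a p-value, an FDR and a ratio of those means. The labels give 25000000 reads per library; the reads behind each gene are not known, so no counting interval is given.

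With 1 sample per stage no test was fitted; calls use the authors' FDR (threshold 0.05) over all 16516 genes. No ratio is given where a mean is 0.1 or less. Named genes are the 9 iron genes, wider iron genes fixed by name, up to 2 per list, direction and pair of stages with the smallest FDR, and the nearest profile; a few of these are not reported here. Members, lists and motifs were chosen with earlier results of these data known. Nothing says which rat gave which library to a mean. Alternatives covered a filter on low means, FDR 0.01, a ratio of at least 1.5, a pseudocount of 1, 2 rescalings, the stage lists and summed transcripts. Python 3.11.15, pandas 2.3.3 and numpy 2.4.6 were used; the recomputed adjustment was tested on simulated data.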

Additional observations from a re-analysis of the deposited data

How the results depend on the processing

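No paired analysis was possible because each stage is 1 deposited mean, and for the same reason no replicate could be left out. The numbers of iron genes called, 1, 7 and 7 for secretory over cervical loop, maturation over secretory and maturation over cervical loop, stayed the same with a filter at a mean of 1 and with a ratio of at least 1.5. The ratio minimum could not have removed a call, since the smallest ratio called was 1.998 (Slc11a2, maturation over secretory). At FDR 0.01 they were 1, 6 and 6, Hmox1 being the gene lost. Of 108 log2 ratios recomputed for single genes, 0 of called genes changed sign or moved by over 1.5-fold. Among genes not called, 5 did: Ftl1 and Ireb2 turned to 0.10 and 0.12 for secretory over cervical loop when the median of all genes (-0.14) was taken off, and the 3 ratios of Slc40a1 shrank with a pseudocount of 1, to log2 0.37, 1.08 and 1.45. Scaling without the 10 largest genes shifted log2 ratios by -0.13 for secretory and -0.14 for maturation against cervical loop. Both rescalings shifted all genes alike, by up to 0.14, and the stage lists held the same means of these genes within 0.45%. Among these 108, only the pseudocount could therefore have moved a ratio of a called gene by over 1.5-fold, and none of these settings could have changed its sign. Summed transcripts, which were estimated separately, are not among the 108 and could have done either. For the 3 genes with transcript tables, 6 of 9 gene and stage pairs were higher both by summed transcripts and by the gene table.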

Other observations

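Genes of the Nrf2 pathway, which controls ferritin and Hmox1 among other targets, were named above only as nearest profiles and as points in the plot of the wider lists. From secretory to maturation cells 10 of 12 rose and 0 fell, 2 did not pass, where 21.8% of all genes rose and 21.1% fell. The median ratio was 2.05 against 1.00 over all genes. Nfe2l2, which encodes Nrf2, had means of 35.1, 45.5 and 93.1 in cervical loop, secretory and maturation cells (2.05-fold over secretory, FDR = 0.0015 in the authors' deposited table). Its inhibitor gene Keap1, at 18.8, 21.98 and 19.5, did not pass (FDR = 0.19 for maturation over secretory in the authors' deposited table). Nqo1, a quinone reductase, stood at 2.16, 1.22 and 19.1, with maturation 15.7-fold above secretory (FDR = 2.28e-05 in the authors' deposited table).

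From cervical loop to secretory cells 5 of the same list were higher, 3 were lower and 4 did not pass, where 16.5% of all genes were higher and 25.2% lower. Nqo1 and Txnrd1, a thioredoxin reductase, fell to 0.564 and 0.721 of the cervical loop level (FDR = 0.0018 and 0.000925 in the authors' deposited table). Gclm, of glutathione synthesis, rose at both steps, with means of 7.54, 16.2 and 33.3 (FDR = 0.00118 and 0.00102 in the authors' deposited table).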
